A study of Mus musculus with 39 samples.

Results

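The 38 genes described here build, move or switch on the motile cilia of the airway lining, and they were followed through the lungs of 39 mice, 1 array for each animal. They were chosen by name as a list of motile cilia genes, and each but Spag6 is read through the probe set that names it alone and has the highest mean log2 signal. With Spag6l in place of Spag6, 36 of the 38 genes had a probe set that passed the filter on dim signals, so 36 of the 13020 genes tested are members. Lrriq1 and Sntn, which encodes the ciliary tip protein sentan, have no probe set that names them alone and are not measured here. Dnai2 is listed under its older symbol Dnaic2. Spag6 is read through Spag6l, a close copy of it, so the 2 cannot be separated with certainty; a probe set annotated Spag6 itself has a mean log2 signal of 0.38, far below the filter, and was not used.

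All animals were female Crlj:CD1(ICR) mice, an outbred strain, on a powdered diet. The diets, fed for 7 or 14 days, were a control diet with no added chemical, permethrin at 5000 ppm, permethrin at 10000 ppm, and isoniazid at 2500 ppm. Permethrin is a pyrethroid insecticide, and isoniazid is a tuberculosis drug, included per the labels as the positive control for tumour induction. Each of the 8 groups holds 5 animals, except 10000 ppm permethrin at 14 days with 4. The animals were 11 weeks old at 7 days and 12 weeks old at 14 days, so age and time on the diet rise together. Titles number the samples as biological replicates, and p-values set group differences against the spread between animals.

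Motile cilia beat in waves on the multiciliated cells that line the trachea, bronchi and bronchioles, and carry mucus out of the lung. Their core is the axoneme, a ring of microtubule doublets around a central pair; dynein arms on the doublets slide them, while radial spokes and the central pair shape the beat. The genes are switched on as a set by Foxj1 and by factors of the RFX family when a cell forms many centrioles and becomes ciliated. The lung arrays carried the marks of the tissue: mean log2 signal of 9 alveolar type 2 cell genes lay between 10.7 and 11.3 in every animal. In whole lung, fewer ciliated cells and less RNA per ciliated cell cannot be told apart.

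Most of the 36 genes moved together from animal to animal. After the group means were subtracted, the median Pearson correlation between 2 members over the 39 arrays was 0.45, against 0.04 between any 2 tested genes. Of the 630 pairs of members, 40.5% had a correlation above 0.5, against 3.20% of all pairs. Arrays share their normalization, and members share the tissue piece of 1 animal, so these correlations are descriptions and not tests. Their spread within groups was also wide, with a median SD of 0.34 on the log2 scale against 0.26 for all tested genes, and 33 of the 36 lay above that second value.

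A signal was made for each animal as the mean over the 36 genes of log2 signal minus the gene's own mean over the 39 arrays. It ran from -0.52 to 0.44, a 1.94-fold range between the lowest and the highest animal. The lowest was replicate 4 of 10000 ppm permethrin at 14 days, in which only 2 of the 36 genes stood above their own mean. The highest was replicate 2 of isoniazid at 7 days, in which 36 of 36 did. Between animals of the same group the pooled SD was 0.242. Of the variance of this signal 22.8% lay between the 8 groups, and the median over single members was 23.9%, beside 20.8% over all tested genes.

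**Figure D1:**
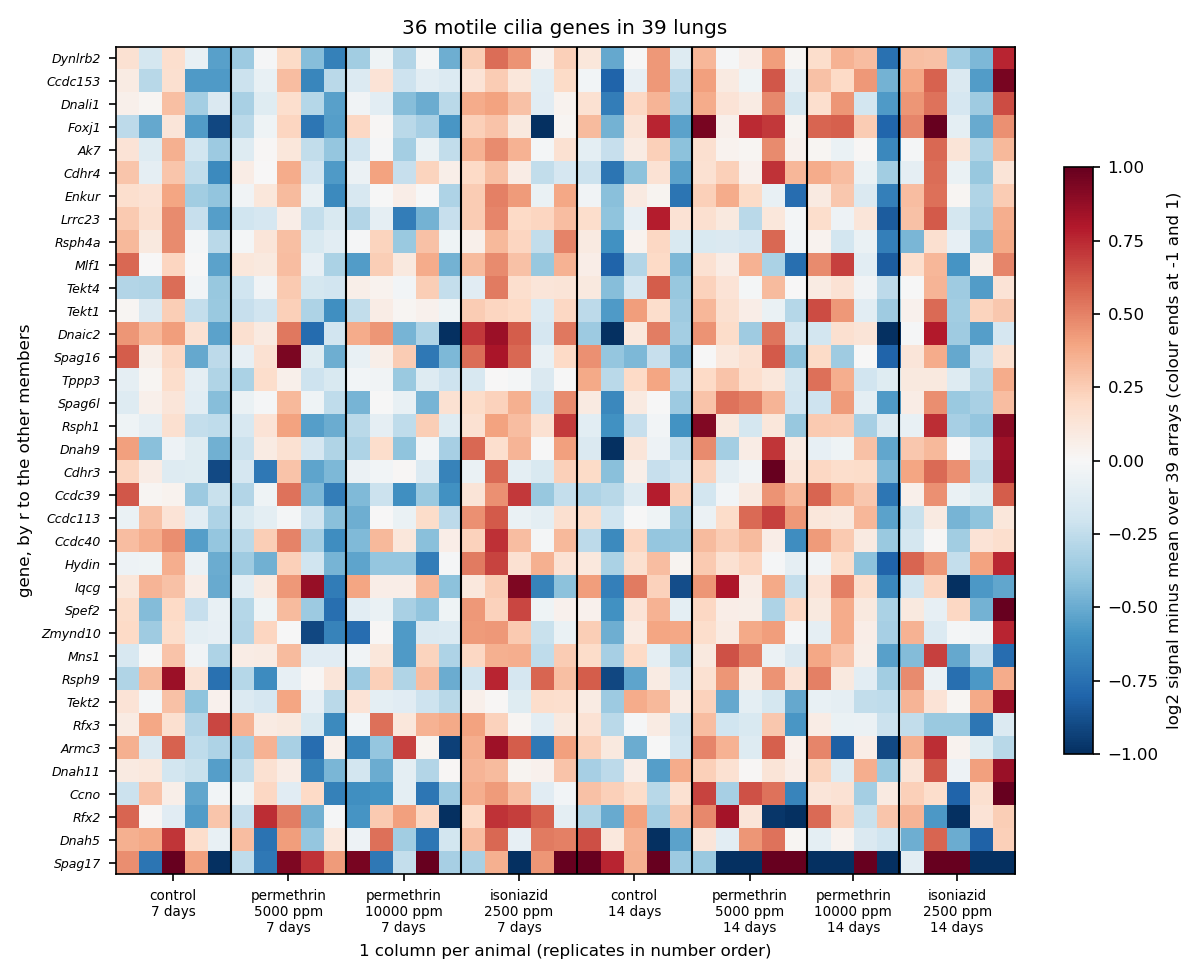
Centred log2 signal of the 36 motile cilia genes (rows, ordered by their correlation to the other members) in the 39 animals (columns, by group). Whole columns are red or blue in the upper rows, as in replicate 4 of 10000 ppm permethrin at 14 days with 2 of 36 genes above their mean, whereas Spag17 in the bottom row varies on its own.

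Among the single genes, 19 had a correlation above 0.7 with the mean of the other 35, 10 lay between 0.5 and 0.7, and 7 lay below 0.5. The closest was Dynlrb2, a roadblock-type light chain of dynein, at r = 0.91. Ccdc153 followed at 0.90, Dnali1, a light intermediate chain of the inner dynein arms, at 0.87, the master regulator Foxj1 at 0.87, and the ciliary adenylate kinase Ak7 at 0.87. The other roles had members above 0.7 too: the outer arm chains Dnaic2 (0.74) and Dnah9 (0.71), the radial spoke genes Lrrc23 (0.78) and Rsph4a (0.77), the central pair genes Spag16 (0.73) and Spag6l (0.72), and the doublet genes Enkur (0.80), Tekt4 (0.75) and Tekt1 (0.75). Cdhr4 (0.82), Mlf1 (0.76), Tppp3 (0.72) and Cdhr3 (0.71) did so among the remaining members.

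The loosest genes were Rfx3 (0.45), Armc3 (0.43), Dnah11 (0.39), Ccno (0.30), Rfx2 (0.19), Dnah5 (0.18) and Spag17 (0.13). Among these 7, Rfx3, Rfx2 and Ccno, a cyclin gene needed to multiply centrioles, belong with Foxj1 to the regulators. Low signal went with a loose tie in part of them: Spag17, at a mean log2 signal of 3.79 just above the limit of 3.43 for testing, had a 94.3-fold range over the 39 arrays, and Dnah5 had a mean of 4.25 and a 9.43-fold range. Rfx2 and Ccno were also dim, with mean log2 signals of 4.58 and 4.57, but Iqcg, at 4.41, still had a correlation of 0.62. Rfx3 was not dim, with a mean log2 signal of 6.33 and a 2.62-fold range.

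**Figure D2:**
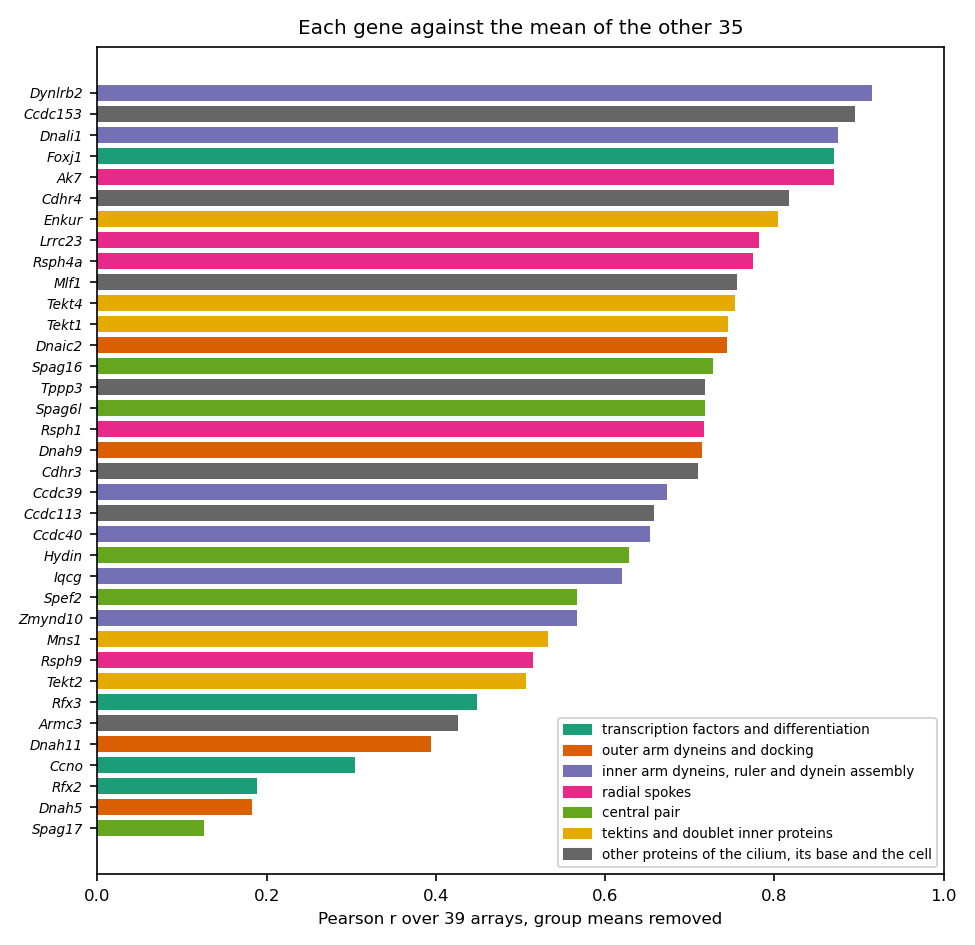
Pearson correlation of each motile cilia gene with the mean of the other 35 over 39 arrays, group means removed; colours give the gene's role. The bars run from 0.13 for Spag17 to 0.91 for Dynlrb2. The regulators other than Foxj1, of which Rfx2 and Ccno have low signal, lie in the lower part.

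Genes outside the list that followed the same signal included many further parts of cilia. The 15 closest of the 12984 other genes tested were Nme5 (r = 0.94), Fam183b (0.93), 1110017D15Rik (0.91), Tmem212 (0.90), Iqca (0.89), Cfap126 (0.88), Lrrc34 (0.88), Ttc29 (0.87), 6820408C15Rik (0.87), Drc3 (0.87), 1700094D03Rik (0.87), Nek5 (0.86), Cfap54 (0.86), Spa17 (0.86) and Agr3 (0.86). Of these 15, 10 stand in a list of other axonemal and dynein assembly genes, which makes up 0.670% of the other genes tested. The same list holds 18 of the 34 genes with r above 0.8 and 21 of the 50 closest, of which another 2 are airway secretory cell genes. Both lists were chosen with earlier results of these data known, so these counts are descriptions and not tests. The 3 at the other end were Adgrf5 (-0.78), Slco2a1 (-0.75) and Kctd12b (-0.72). Leaving out the 2 animals farthest from the median of the signal gave 0.93 for Nme5 and -0.71 for Adgrf5, and the values within the 7-day and the 14-day animals were 0.92 and 0.95 for Nme5, but -0.49 and -0.91 for Adgrf5.

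Because most of the measured genes moved together, promoters of the listed genes are shown. RefSeq promoters on GRCm38.p6, from 250 bases before to 50 bases after the start, were matched by symbol for 34 of the 38 genes; Foxj1, Rsph1, Rsph4a and Tppp3 had no entry. The letters GTTGCC on either strand, the core of the X-box that RFX factors bind, were found in 24 of the 34, against 14.1% of the 27025 genes with a promoter. The forkhead letters TGTTTAC were found in 3 of the 34 (Ak7, Mlf1 and Sntn), against 4.05% of all genes. A match describes these letters only.

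The 8 windows of 60 bases below belong to the genes with the highest correlation to the other members among those whose core lies before the start. Each is written 5′ to 3′ in the direction of its gene, and capitals mark GTTGCC or its reverse complement GGCAAC.
Dynlrb2 (chr8:116504937-116504996, plus strand): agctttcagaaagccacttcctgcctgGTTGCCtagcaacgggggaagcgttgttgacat
Ccdc153 (chr9:44240498-44240557, plus strand): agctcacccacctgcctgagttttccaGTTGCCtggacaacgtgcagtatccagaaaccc
Enkur (chr2:21205367-21205426, minus strand): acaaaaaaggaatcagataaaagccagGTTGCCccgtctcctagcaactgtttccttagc
Lrrc23 (chr6:124779734-124779793, minus strand): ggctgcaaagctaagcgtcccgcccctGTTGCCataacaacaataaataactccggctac
Mlf1 (chr3:67373965-67374024, plus strand): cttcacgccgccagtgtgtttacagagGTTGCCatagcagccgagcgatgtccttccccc
Tekt1 (chr11:72361883-72361942, minus strand): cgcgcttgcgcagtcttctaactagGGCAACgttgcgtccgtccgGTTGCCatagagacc
Dnaic2 (chr11:114727359-114727418, plus strand): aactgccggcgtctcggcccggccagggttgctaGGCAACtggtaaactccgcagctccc
Spag16 (chr1:69826840-69826899, plus strand): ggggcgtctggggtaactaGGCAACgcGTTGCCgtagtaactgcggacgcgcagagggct
Of the 15 members with a correlation above 0.7 and a promoter entry, 12 hold the core, and of the 7 loosest members 3 do. The marked core nearest the start began between 15 bases (Tekt1) and 152 bases (Ccdc153) before it in these windows.

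Whether either chemical changed these genes was asked with limma in 8 group means, with p-values adjusted by the Benjamini-Hochberg method over all 13020 genes and 0.05 as the threshold. No motile cilia gene passed in any of the 6 comparisons of a treatment with the control of its own time. At 7 days this was 0 of 36 members, beside 0.0922% of all genes called at 5000 ppm permethrin, 0.238% at 10000 ppm permethrin and 0.0461% with isoniazid. The 14-day counts were also 0 of 36, beside 0.131% at 5000 ppm permethrin, 0.215% at 10000 ppm permethrin and 0.0307% with isoniazid. At such shares fewer than 1 of 36 genes would be called, so the counts do not set the members apart. Nor did any member have treated and control animals that do not overlap, beside 0.745%, 1.05%, 1.94%, 0.968%, 1.87% and 0.591% of all genes in the same order.

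The differences were small against the spread between animals. The 95% interval of a member's log2 difference reached a median of 0.42 to either side, and 0.45 for 10000 ppm permethrin at 14 days. At an unadjusted p under 0.05 there were 0, 0, 2, 4, 1 and 4 members in the 6 comparisons, where all genes gave 1.99%, 3.15%, 6.52%, 5.22%, 6.04% and 6.03%. In simulated data of this design with 200 changed genes, limma found between 28% and 35% of genes changed by 0.5 on the log2 scale. It found between 77% and 80% of those changed by 1, so changes of the size seen here would often be missed. The 6 comparisons themselves called only 4 to 31 genes, and the members had a wider spread than all genes. The simulated shares may therefore not hold for the members.

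The members as a group lay to one side of control in several comparisons, and the side was not the same for every diet and time. At 7 days, 25 of 36 were lower at 5000 ppm permethrin (median log2 difference -0.08) and 28 of 36 were lower at 10000 ppm (median -0.11), whereas 33 of 36 were higher with isoniazid (median 0.26). At 14 days 31 of 36 were higher at 5000 ppm permethrin (median 0.23), 25 of 36 at 10000 ppm (median 0.07) and 28 of 36 with isoniazid (median 0.20). Over all tested genes the medians of these 6 comparisons lay between -0.013 and 0.018. Since most members move together between animals, these counts do not stand for as many independent genes. The 3 comparisons at each time also share their controls.

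Some of these one-sided counts changed when 1 animal was left out or when other signals of the tissue entered the model. The secretory and cardiac signals themselves followed the cilia signal (r = 0.75 and 0.55), and their part in the counts was not tested. At 10000 ppm permethrin for 14 days the median rose to 0.28 (29 of 36 positive) without replicate 4 of that group, and it fell to -0.03, -0.007 and -0.01 without control replicate 2, control replicate 5 or treated replicate 2. Without control replicate 3 the median at 5000 ppm for 7 days was 0.0017, with 18 of 36 positive. Leaving out 1 animal turned the sign in none of the other 4 comparisons. The 14-day controls were also low in airway secretory (-0.92), cardiac (-1.10) and brown fat (-1.08) signal, each the mean centred log2 signal of a gene list given further on. With the secretory signal as a covariate the 14-day counts of positive members were 12 of 36 at 5000 ppm permethrin, 7 at 10000 ppm and 18 with isoniazid. They were 18, 7 and 12 with cardiac and hepatocyte signal as covariates. The 7-day counts kept their side, at 10, 6 and 31 of 36 and at 13, 10 and 34 of 36 in the same 2 settings.

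**Figure D3:**
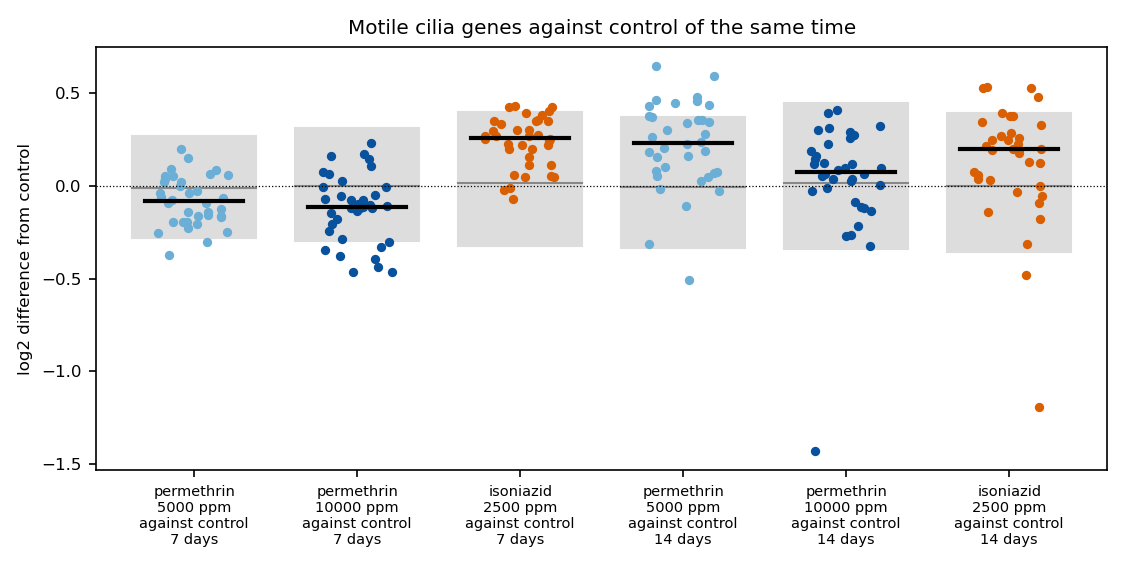
Log2 difference from the control of the same time for the 36 motile cilia genes (points) in 6 comparisons; black bars are the members' medians, grey boxes hold all 13020 genes between their 5th and 95th percentiles and the grey line is their median. The medians run from -0.11 at 10000 ppm permethrin for 7 days to 0.26 with isoniazid for 7 days, and the points near -1.4 and -1.2 at 14 days are Spag17.

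In the mean signal of the 36 genes every treated group overlapped the controls of its time. At 7 days it averaged -0.02 (SD 0.26, n = 5) in controls, -0.11 (SD 0.24, n = 5) at 5000 ppm permethrin, -0.15 (SD 0.13, n = 5) at 10000 ppm permethrin and 0.21 (SD 0.18, n = 5) with isoniazid. The 14-day means were -0.08 (SD 0.25, n = 5) in controls, 0.14 (SD 0.16, n = 5) at 5000 ppm, -0.05 (SD 0.32, n = 4) at 10000 ppm and 0.05 (SD 0.34, n = 5) with isoniazid. The mean at 10000 ppm for 14 days rests on 1 animal: without replicate 4, at -0.52, it is 0.11 (SD 0.066, n = 3). The 8 means ran from 0.21 with isoniazid at 7 days down to -0.15 at 10000 ppm permethrin at 7 days, beside an SD of 0.242 between animals of a group. Animals of these groups ran from -0.07 to 0.44 and from -0.32 to 0.02.

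**Figure D4:**
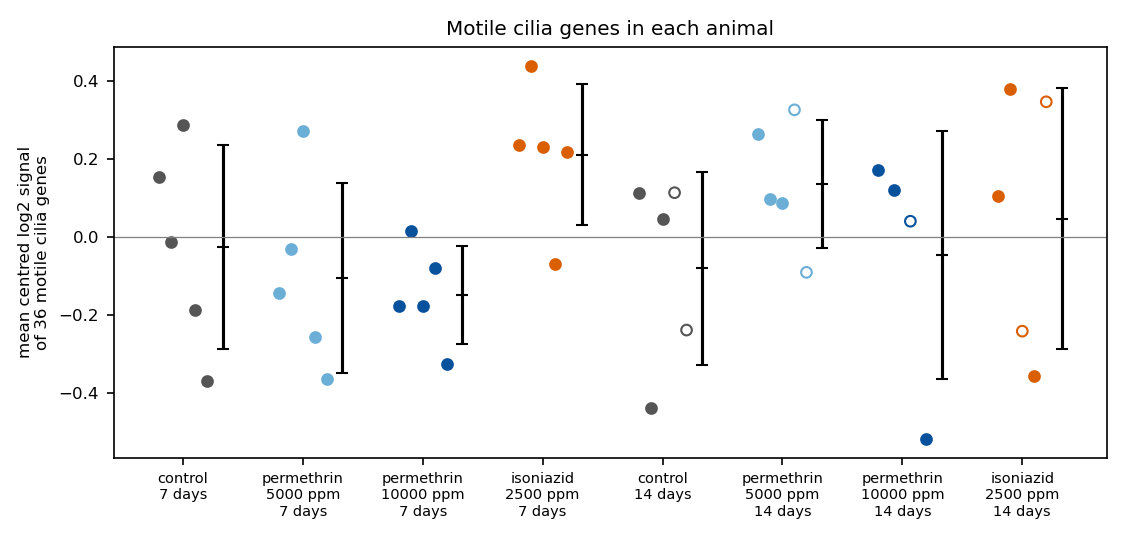
Mean centred log2 signal of the 36 motile cilia genes in each animal, by diet and time, with the group mean and SD at the right of each group; open circles are the 7 arrays with a high Gapdh 3′ to 5′ ratio. Animals run from -0.52 to 0.44 and every treated group overlaps the control of its time.

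Among the regulators, Foxj1 drives the formation of motile cilia. At 7 days the log2 signals of Foxj1 were 6.79, 6.54, 7.17, 6.49 and 6.14 in the controls, 6.78, 7.01, 7.27, 6.33 and 6.5 at 5000 ppm permethrin, 7.26, 7.06, 6.78, 6.72 and 6.47 at 10000 ppm permethrin, and 7.29, 7.34, 7.15, 6.04 and 7.07 with isoniazid. Its 14-day values, in the same order of diets, were 7.37, 6.58, 7.18, 7.81 and 6.52, then 8.0, 7.1, 7.8, 7.76 and 7.08, then 7.63, 7.65, 7.3 and 6.26, and last 7.54, 8.21, 6.95, 6.54 and 7.51. The control and treated ranges overlap at both times, and isoniazid at 7 days holds 1 animal at 6.04 below 4 between 7.07 and 7.34. The log2 difference of Foxj1 from control was 0.15 at 5000 ppm and 0.23 at 10000 ppm permethrin at 7 days, the latter the largest rise among members in its comparison (SE 0.29, adjusted p = 1 in limma). It was 0.35 (SE 0.29) with isoniazid at 7 days, and 0.46 (SE 0.29), 0.12 (SE 0.31) and 0.26 (SE 0.29) at 14 days for 5000 ppm, 10000 ppm and isoniazid, with adjusted p of 0.942, 0.977, 0.992 and 0.953 in limma. Rfx3, which binds the X-box, was at -0.25 (SE 0.17) at 5000 ppm permethrin for 7 days and at -0.07 (SE 0.17) with isoniazid for 7 days, the lowest member there. Ccno was at -0.40 and Rfx2 at -0.33 at 10000 ppm permethrin for 7 days, with none of the 4 regulators past the threshold.

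The outer dynein arms give most of the power of the beat, and Dnah5 encodes one of their heavy chains. In the 7-day groups, signals on the log2 scale of Dnah5 were 4.6, 4.63, 4.96, 4.42 and 4.18 in the controls, 4.56, 3.51, 4.67, 3.86 and 4.35 at 5000 ppm permethrin, 4.19, 4.8, 3.9, 3.53 and 4.06 at 10000 ppm permethrin, and 4.56, 4.82, 4.16, 4.77 and 4.75 with isoniazid. Its 14-day values, in the same order of diets, were 4.89, 4.35, 4.59, 1.73 and 3.72, then 4.37, 4.14, 4.69, 4.79 and 4.27, then 4.15, 4.28, 4.1 and 4.05, and last 3.76, 4.83, 3.75, 3.44 and 4.49. One 14-day control, at 1.73, lies far below every other animal, and the remaining ranges overlap. Dnah5 was at -0.37 (SE 0.36) at 5000 ppm permethrin for 7 days, the lowest member of that comparison, where 1 of the 5 treated mice exceeded the control mean. Dnah9, another heavy chain of these arms, was with isoniazid at 0.43 (SE 0.21) at 7 days and 0.53 (SE 0.21) at 14 days. Dnah11 was at 0.54 (SE 0.18) with isoniazid at 14 days, the highest member there. Each of the 5 treated animals exceeded the control mean in these 3 cases, but adjusted p was 0.753, 0.768 and 0.631 in limma. All 4 outer arm genes were positive with isoniazid at both times, and also at both permethrin doses at 14 days. Their 14-day median was 0.42 at 5000 ppm, 0.18 at 10000 ppm and 0.36 with isoniazid. At 5000 ppm for 14 days Dnah9 was at 0.48 (SE 0.21). Dnah5 was at 0.60 (SE 0.36) there, against controls that include the animal at 1.73.

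Ccdc39 belongs, with Ccdc40, to the ruler that sets the repeat of inner arms and spokes along the doublet. Lungs taken at 7 days had Ccdc39 log2 signals of 7.35, 6.75, 6.76, 6.37 and 6.51 in the controls, 6.43, 6.68, 7.27, 6.28 and 6.04 at 5000 ppm permethrin, 6.29, 6.51, 6.12, 6.36 and 6.12 at 10000 ppm permethrin, and 6.86, 7.18, 7.44, 6.35 and 6.49 with isoniazid. Its 14-day values, in the same order of diets, were 6.41, 6.45, 6.6, 7.51 and 6.97, then 6.54, 6.7, 6.82, 7.17 and 7.06, then 7.31, 7.1, 6.99 and 6.0, and last 6.78, 7.18, 6.66, 6.61 and 7.33. At 10000 ppm permethrin for 7 days all 5 animals lay below the control mean, yet the highest of them, at 6.51, stood above the lowest control at 6.37. That difference of -0.47 (SE 0.24, adjusted p = 1 in limma) was the largest fall among members in the comparison. Ccdc40 had 0.39 (SE 0.24) at 10000 ppm permethrin for 14 days. Zmynd10, which helps to assemble dynein arms in the cytoplasm, was at -0.30 (SE 0.21) at 5000 ppm permethrin for 7 days, and Dynlrb2 at 0.40 (SE 0.20) with isoniazid for 7 days.

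Rsph1 encodes a protein of the radial spoke head. On the log2 scale the 7-day signals of Rsph1 were 7.46, 7.42, 7.67, 7.27 and 7.26 in the controls, 7.34, 7.64, 7.91, 6.96 and 7.01 at 5000 ppm permethrin, 7.23, 7.41, 7.25, 7.75 and 7.38 at 10000 ppm permethrin, and 7.65, 7.91, 7.81, 7.66 and 8.21 with isoniazid. Its 14-day values, in the same order of diets, were 7.4, 6.9, 7.27, 7.48 and 6.91, then 8.43, 7.6, 7.33, 7.61 and 7.13, then 7.77, 7.76, 7.17 and 7.37, and last 7.43, 8.24, 7.18, 7.12 and 8.41. With isoniazid at 7 days the animals lay between 7.65 and 8.21 and the controls between 7.26 and 7.67, so that the ranges just overlap. The difference of 0.43 (SE 0.22, adjusted p = 0.781 in limma) was the largest rise among members there, and at 14 days it was 0.48 (SE 0.22). Another radial spoke gene, Lrrc23, was at -0.38 (SE 0.19, adjusted p = 1) at 10000 ppm permethrin for 7 days, where 0 of the 5 treated mice exceeded the control mean. It was at -0.27 at 14 days, while Rsph1 was at -0.01 and 0.32 in the same 2 comparisons.

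Hydin is a giant protein of the central pair. At 7 days the log2 signals of Hydin were 5.04, 5.04, 5.44, 5.03 and 4.59 in the controls, 4.72, 4.61, 5.32, 4.89 and 4.62 at 5000 ppm permethrin, 4.56, 4.7, 4.69, 4.39 and 5.07 at 10000 ppm permethrin, and 5.6, 5.76, 5.24, 5.44 and 5.23 with isoniazid. Its 14-day values, in the same order of diets, were 5.19, 4.77, 5.25, 5.39 and 5.11, then 5.35, 5.23, 5.3, 5.07 and 5.0, then 5.05, 5.27, 4.67 and 4.28, and last 5.67, 5.52, 4.84, 5.48 and 5.84. On average its 7-day signals were highest with isoniazid and lowest at 10000 ppm permethrin, and every treated group overlapped the controls. Hydin was at 0.43 (SE 0.19) with isoniazid at 7 days, the smallest p of the members there (adjusted p = 0.687 in limma), and at -0.34 (SE 0.19) at 10000 ppm permethrin. When all probe sets of the gene are averaged, including one at a mean log2 signal of 1.48, the permethrin differences of Hydin at 7 days turn to 0.43 and 0.62. The other central pair genes moved less evenly: Spag6l was at 0.46 (SE 0.19) at 5000 ppm permethrin for 14 days, and Spag17 reached -1.43 (SE 0.82) at 10000 ppm and -1.19 (SE 0.78) with isoniazid at 14 days, the largest falls of these comparisons and within its wide spread. At 5000 ppm for 14 days Spag17 was at -0.51 (SE 0.78).

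Tekt1 is a tektin, a filament built into the doublet wall. Lungs taken at 7 days had Tekt1 log2 signals of 5.77, 5.61, 6.0, 5.51 and 5.38 in the controls, 5.52, 5.56, 5.99, 5.44 and 5.14 at 5000 ppm permethrin, 5.5, 5.83, 5.77, 5.8 and 5.71 at 10000 ppm permethrin, and 6.0, 5.97, 5.95, 5.61 and 5.96 with isoniazid. Its 14-day values, in the same order of diets, were 5.49, 5.18, 6.17, 5.93 and 5.4, then 6.09, 5.91, 5.82, 5.69 and 5.46, then 6.4, 6.19, 5.65 and 5.4, and last 5.8, 6.32, 5.4, 5.98 and 6.02. With isoniazid at 7 days 4 animals lay between 5.95 and 6.0 and the fifth at 5.61, and every treated group overlapped its controls. Its differences ran from -0.13 at 5000 ppm permethrin for 7 days to 0.27 at 10000 ppm and with isoniazid at 14 days. Tekt2 was the member of this role with the lowest values under permethrin at 14 days, at -0.31 and -0.26 for the lower and higher dose.

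Of the remaining members, Cdhr4 or Cdhr3, which are cadherin-related, stood highest in 4 of the 6 comparisons, and Ccdc153 did so at 7 days at 5000 ppm permethrin (0.053) and with isoniazid (0.35). At 5000 ppm permethrin for 14 days Cdhr4 was at 0.65 (SE 0.19), the largest difference of any member in the 6 comparisons other than those of Spag17, where 5 of 5 treated mice exceeded the control mean and adjusted p was 0.485 in limma. It was at 0.41 (SE 0.20, adjusted p = 0.821) at 10000 ppm. Cdhr3, a surface protein of ciliated cells, was at 0.53 (SE 0.22, adjusted p = 0.768) with isoniazid at 14 days, and Ccdc113 at 0.45 (SE 0.17, adjusted p = 0.839) at 5000 ppm permethrin for 14 days. Tppp3, a tubulin-binding protein, stayed between -0.10 and 0.06 in the 6 comparisons.

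Averaging both times left 0 of 36 members past the threshold for each chemical, beside 0.223% of all genes for 5000 ppm permethrin, 0.499% for 10000 ppm and 0.392% for isoniazid in limma. With isoniazid 32 of 36 members were positive, with a median of 0.25, and 8 had an unadjusted p under 0.05, which is 22.2% of them beside 9.14% of all genes. These were Dnah9 (0.48), Rsph1 (0.46), Dnah11 (0.45), Cdhr3 (0.40), Hydin (0.38), Ccdc153 (0.37), Enkur (0.34) and Ak7 (0.26), and the smallest adjusted p was 0.128, for Dnah11. For 5000 ppm permethrin 27 of 36 were positive (median 0.07) and 2 had an unadjusted p under 0.05, beside 3.73%. For 10000 ppm 16 of 36 were positive (median -0.01) and 3 had one, beside 6.52%; Hydin (-0.33) and Lrrc23 (-0.33) were lower and Cdhr4 (0.29) higher.

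Between the permethrin doses 0 of 36 members and 0% of all genes passed in limma at either time. The median difference of 10000 from 5000 ppm was -0.03 at 7 days and -0.19 at 14 days, when 28 of 36 were lower at the higher dose; 0 and 1 member had an unadjusted p under 0.05, beside 2.07% and 3.79%. The change of each chemical's effect from 7 to 14 days was tested as an interaction and also gave 0 of 36 members and 0% of all genes. Its median over the members was 0.30 for 5000 ppm permethrin, with 33 of 36 positive, 0.18 for 10000 ppm and -0.08 for isoniazid, and 2, 0 and 0 members had an unadjusted p under 0.05, beside 2.85%, 2.25% and 2.95% of all genes. The opposite sides seen for 5000 ppm permethrin at 7 and 14 days were thus not told apart by this test in any member, the 95% interval of a member's change reaching a median of 0.60 to either side.

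In the controls alone 0 of 36 members differed between 14 and 7 days, beside 0.115% of all genes, and 0 had an unadjusted p under 0.05, beside 13.9%. A comparison chosen after the data were seen averaged all 4 diets at each time. It called 2 of 36 members beside 18.2% of all genes, which is no excess over the background, and 6 of 36 had an unadjusted p under 0.05, beside 31.9%. Foxj1 was higher at 14 days by 0.49 (SE 0.15, adjusted p = 0.0201) and Rfx3 was lower, at -0.28 (SE 0.09, adjusted p = 0.0228). The call of Foxj1 is lost when each array is centred on its median (0.44, adjusted p = 0.0639), and that of Rfx3 when its dim second probe set is averaged in (-0.16, adjusted p = 0.366) or with cardiac and hepatocyte signal (-0.21, adjusted p = 0.0974) or secretory signal (-0.25, adjusted p = 0.055) as covariates. Without 1 of 4 animals in turn, namely permethrin 5000 ppm 7 days replicate 2, control 14 days replicate 2, permethrin 10000 ppm 14 days replicate 4 or isoniazid 14 days replicate 4, it called 4 or 5 members. These stood beside 2283 to 2531 of all genes. Age, time on the diet and the handling of the groups cannot be told apart here.

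Other cilia genes followed the members. In the list of other axonemal and dynein assembly genes 87 of 125 were tested, and their mean signal had r = 0.91 with that of the members after group means were removed (Spearman 0.92; 0.93 within the 20 animals of 7 days and 0.90 within the 19 of 14 days). Of the 87, 0 passed the threshold in limma in the 6 comparisons, and 43, 40, 76, 65, 53 and 61 were positive, with medians from -0.01 to 0.26. For intraflagellar transport and BBSome genes, which primary cilia use too, 43 of 49 were tested, r was 0.66, and 0 passed. The regulators of multiciliated cell differentiation and centriole amplification had r = 0.60, with 17 of 24 tested and 0 past the threshold. Of 14 testis and sperm genes, 3 were tested; Prm1 and Tnp1, which mark sperm, lay below the filter.

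Markers of airway secretory cells moved with the cilia signal as well. Over 39 arrays the mean signal of 22 genes of club and other airway secretory cells, of 29 listed, had r = 0.75 with that of the cilia genes (0.68 at 7 days, 0.79 at 14 days, and 0.66 without the 2 farthest animals). It ranged from -2.03 to 0.80 and was lowest in the 14-day controls, at -0.92 (SD 0.95, n = 5), with the means of the other groups between -0.21 and 0.32. The mean log2 level of the list lay between 6.81 and 9.02 in the 14-day controls and between 7.18 and 9.64 in the other animals; Krt15, Itln1, Spdef, Muc5ac and Clca1 were below the filter. The 6 tested genes of 18 listed for large airway cartilage and glands had r = 0.57. Alveolar type 2 cell genes had r = -0.61 and alveolar type 1 cell genes -0.39. With the secretory signal in the model, the median difference of the cilia genes at 14 days became -0.095 at 5000 ppm permethrin, -0.23 at 10000 ppm and 0.0023 with isoniazid, and 0.18 in the controls from 7 to 14 days (32 of 36 positive, against 15 of 36 without it). Lrrc23 was then lower at 10000 ppm for 14 days (-0.67, adjusted p = 0.0325 in limma), beside 20 calls among all genes. Without the secretory signal in the model its difference was -0.27 (adjusted p = 0.953 in limma). The secretory signal itself differed between these groups, at -0.92 in the controls and 0.09 at 10000 ppm. Whether the fall of Lrrc23 comes from permethrin or from the adjustment was not tested. Only Aldh1a1 of this list passed the threshold in limma in the 6 comparisons, rising by 0.28, 0.26 and 0.31 at 10000 ppm for 7 days and at 5000 and 10000 ppm for 14 days.

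**Figure D5:**
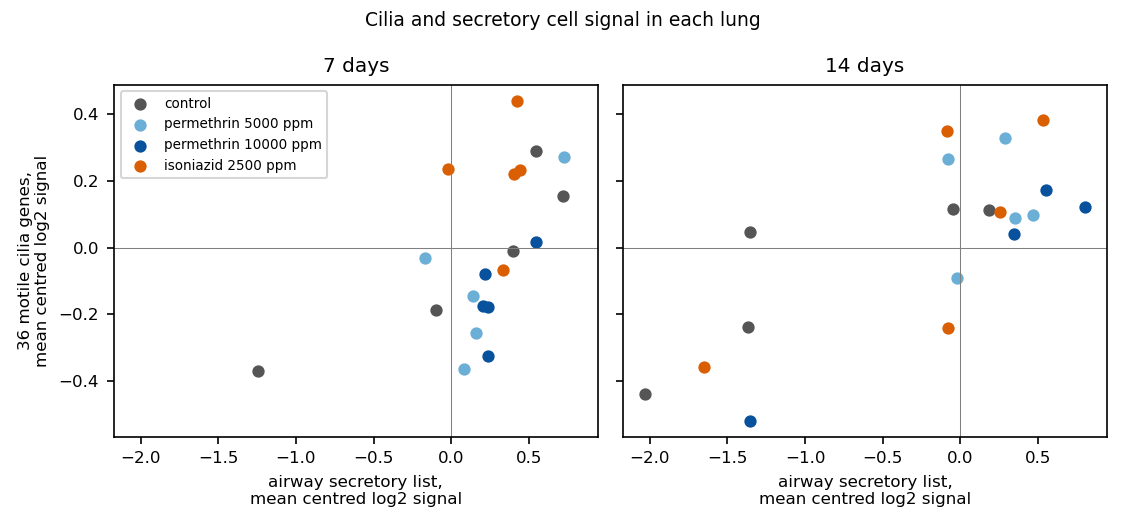
Mean centred log2 signal of the 36 motile cilia genes against that of 22 airway secretory cell genes, 1 point per animal, at 7 and 14 days. Low secretory signal mostly goes with low cilia signal. At the left of the 14-day panel lie 3 of the 5 controls, isoniazid replicate 4 (-1.65) and 10000 ppm permethrin replicate 4 (-1.35). Of these, control replicate 3 has a cilia signal of 0.05. Control replicate 5 (-1.24) lies at the left of the 7-day panel.

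Genes of other tissues varied too. Mean signal of 16 cardiac muscle genes had r = 0.55 with the cilia signal and that of 8 brown fat genes 0.63, and both were lowest in the 14-day controls, at -1.10 (SD 0.76, n = 5) and -1.08 (SD 0.78, n = 5). All 16 listed cardiac genes passed the filter, with a mean log2 level of 6.06 to 7.95 in the 14-day controls, whereas Ucp1, the defining gene of brown fat, lay below it. Hepatocyte genes had r = 0.16 (-0.08 at 7 days and 0.50 at 14 days), and endothelial and mesenchymal genes -0.21 (0.40 and -0.54), so that both differed in sign between the times. Basal cell genes had 0.17, leukocyte genes -0.25, testis and sperm genes 0.26, and the 1 tested gene of thyroid, oesophagus and thymus 0.02, with -0.22 at 7 days and 0.17 at 14 days for the last. With cardiac and hepatocyte signal in the model, the medians at 14 days became 0.021 at 5000 ppm permethrin, -0.20 at 10000 ppm and -0.11 with isoniazid. The log2 ratio of 3′ to 5′ Gapdh probe sets, a measure of RNA degradation, exceeded 0.7 on 7 arrays of the 14-day groups and had r = 0.31 with the cilia signal. The part of the airway, the other tissues and RNA quality in the differences of the cilia genes was not tested.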

How the data were processed

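Lung RNA of 39 mice was measured on Affymetrix arrays. The deposited values are linear signal intensity per probe set, which the authors made with MAS5, according to the submitters' processing notes; its version and scan dates were not given in the sources used here. Biotin-labelled cRNA was prepared by 3′ priming, per the labels' protocols. Array medians ran from 17.4 to 26.2, so values were put on the log2 scale without a pseudocount and quantile normalized, which removes changes shared by most genes. GEO's platform annotation gives 34945 of 45101 probe sets 1 gene symbol, 932 several and 9160 none; the named ones stand for 18193 genes, each read through its probe set of highest mean signal. A gene was tested if this mean was among the upper 60% of probe sets (log2 signal of at least 3.43). R 4.3.3 with limma 3.58.1 and data.table (version 1.17.8) fitted 8 group means with a trend; SE are those of the model, tests are two-sided, and p-values were adjusted over 13020 genes in each of 15 planned comparisons and 1 added later. The steps were tested on simulated data with 200 changed genes. No pair of arrays was identical.

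Members and gene lists were chosen with earlier results of these data known. Genes with values in every animal are 1 of each role; otherwise the 3 smallest p and the largest rise and fall of each comparison are named, and the 15 genes most like the mean cilia signal and the 3 least. Other genes were named after their values were seen. Alternatives varied the scaling, pseudocount, filter, probe sets, model samples, replicate block, weights, covariates, RNA quality and single animals. Precision is limited by the number of arrays in a group.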

Additional observations from a re-analysis of the deposited data

Results flagged for a closer look

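In 2 of 56 sets of animals examined (7 quantities in 8 groups), 1 animal stood apart from the rest of its group by Dixon's test, where chance flags about 1 in 20. Both were the same animal, replicate 4 of isoniazid at 7 days. Its Foxj1 log2 signal was 6.04, with the other 4 animals between 7.07 and 7.34. Its Tekt1 log2 signal was 5.61, with the others between 5.95 and 6.0. The mean cilia signal of this animal, -0.07, was also the lowest of its group, and 11 of 36 genes stood above their own mean.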

How the results depend on the processing

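In every planned treatment comparison the count of called motile cilia genes stayed at 0 under all alternatives run, with these exceptions. With the airway secretory signal as a covariate the count was 1 (Lrrc23) at 10000 ppm permethrin for 14 days, beside 20 of all genes. For the mean of both times at that dose it was also 1 (Lrrc23), beside 45. With either covariate setting the count was 1 for control, 14 against 7 days. This was Tppp3 with cardiac and hepatocyte signal, beside 144 of all genes, and Foxj1 with secretory signal, beside 196. Of the medians given below, 0.0023, 0.18 and 0.021 were reached by moves smaller than the SD between animals. The medians moved by more than that SD only with covariates, though smaller moves also turned signs or exceeded 1.5 times. With secretory signal they were -0.095 at 5000 ppm and -0.23 at 10000 ppm permethrin and 0.0023 with isoniazid for 14 days, 0.18 for the controls over time, and 0.042 for the change of the 5000 ppm effect. With cardiac and hepatocyte signal they were 0.021 at 5000 ppm, -0.20 at 10000 ppm and -0.11 with isoniazid for 14 days, 0.25 for the controls over time, and 0.00499, -0.12 and -0.42 for the changes of the 5000 ppm, 10000 ppm and isoniazid effects. In the comparison of times added later, the count of 2 stood beside 2372 of all genes. It became 1 with median centring (beside 1073 of all genes) and 1 with the mean of all probe sets (1296). It was 4 with array weights (2735) and 5 without arrays of high 3′ to 5′ ratio (1949). With cardiac and hepatocyte signal it was 10 (2953), and with secretory signal 10 (2676). Leaving out 1 animal at a time gave 2 to 5, and those with 4 or 5 stood beside 2283 to 2531 of all genes. Signs turned for Hydin at 7 days with the mean of all probe sets (0.43 at 5000 ppm, 0.62 at 10000 ppm), for Spag17 at 5000 ppm for 7 days (-0.013 with that mean, and -0.16 to 0.54 without single animals), and for Rfx3 with isoniazid for 7 days (0.00737 with cardiac and hepatocyte signal, and -0.19 to 0.044 without single animals); leaving out control replicate 5 of 7 days turned both. The cause was not tested. Same-numbered animals of different groups had a mean correlation of 0.032 in their deviations, against -0.008 for other pairs. By comparison, the means of same-numbered pairs ran from -0.14 (10000 ppm permethrin, 14 days) to 0.11 (5000 ppm permethrin, 7 days). Every array whose Gapdh log2 ratio exceeded 0.7 carried replicate number 3, 4 or 5. A small mean correlation therefore cannot decide whether the numbers stand for something shared, such as handling order, and this was not tested. With the replicate block no count of calls changed, and the median at 10000 ppm permethrin was 0.04 for 14 days (0.07 without the block) and -0.03 for the mean of both times (-0.01). With array weights the median at 10000 ppm for 14 days was 0.18, and single animals took it from -0.03 to 0.28. Dim genes such as Spag17 and Dnah5 are the least precise.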
